A study of Mus musculus with 12 samples.

Results

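Toll-like receptors are the receptors with which cells of the innate immune system sense microbial molecules and molecules released from damaged tissue. The rows of the deposited expression table whose symbol is Tlr1, Tlr2, Tlr3, Tlr4, Tlr5, Tlr6, Tlr7, Tlr8, Tlr9 or Tlr13 were taken, which gave 10 genes of 55401. RNA was measured by bulk sequencing in 12 orthotopic tumors of 4T1, a mouse mammary carcinoma line, grown in young Balb/c mice. Each of 4 groups had 3 tumors with 1 library each: a control isotype IgG (IgG1-Fc), recombinant IL-10-Fc, an antibody to CSF1R, the receptor through which colony stimulating factor 1 acts (group aCSF1R), and the IL10/CSF1R fusion protein BF10, in which human interleukin-10 is linked to an antibody of mouse IgG2a format against mouse CSF1R. The labels put treatment at 6 doses, 2 per week, from a tumor volume of 100 mm3; other descriptions of the study give fewer doses, so the number is uncertain. The study asked how BF10 acts in the tumor beside each of its parts, and the comparisons here ask what each treatment did to the transcripts of these receptors. Nothing in the labels says how the animals of a group were related, so p-values measure the spread between these tumors.

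Each receptor has a horseshoe of leucine-rich repeats that meets the ligand and a cytoplasmic TIR domain that recruits adaptor proteins, which lead to NF-kappa B and interferon regulatory factors. Tlr1, Tlr2, Tlr4, Tlr5 and Tlr6 sit at the cell surface, and Tlr3, Tlr7, Tlr8, Tlr9 and Tlr13 in endosomes. In tumors macrophages carry many of them, but epithelial cells, fibroblasts, endothelium and neutrophils express some members too. CSF1R is the receptor on which most tissue macrophages depend for survival. In bulk tumor tissue a lower level can mean fewer cells of a type or less RNA per cell, and these cannot be told apart.

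Levels are given in TPM, a unit that corrects for gene length and sums to 1000000 in each library, made from the deposited FPKM, and changes are differences of log2(TPM + 1) from limma, a scale that understates the change of low genes. A gene was called at a Benjamini-Hochberg adjusted p below 0.05 over 15504 tested genes with a change of at least 1.5-fold, and all 10 receptors were among the genes tested. The libraries held an estimated 31300000 to 36500000 reads. They fell into sets by the sum of their FPKM values that do not follow the treatments: 5 higher-sum libraries (control replicates 4 and 7, IL-10-Fc replicate 7, aCSF1R replicate 8 and BF10 replicate 6) and 7 lower-sum ones. Since 2 of 3 control libraries but 1 of 3 in each other group are higher-sum, the comparisons were also fitted with the set as a term. The marker genes of the labelled tumor, Epcam and keratins among them, were found in all libraries, with a summed level of 668 to 2316 TPM.

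The genes lie on 7 chromosomes of GRCm38 in the annotation used here. Tlr7 (ENSMUSG00000044583, X, 167304929 to 167330558, minus strand) and Tlr8 (ENSMUSG00000040522, X, 167242696 to 167264329, minus strand) are neighbors, 40599 bp apart with no annotated gene between them. Tlr13 (ENSMUSG00000033777, X, 106143204 to 106160493, plus strand) is elsewhere on the same chromosome. Tlr1 (ENSMUSG00000044827, 5, 64924679 to 64933563, minus strand) and Tlr6 (ENSMUSG00000051498, 5, 64952031 to 64960097, minus strand) are also neighbors, 18467 bp apart. Tlr1 and Tlr6 share 340 stretches of the read length of 75 nt, which is 10.3% of those of Tlr1 and 9.25% of those of Tlr6, and the longest shared stretch is 229 nt, so a part of their reads could have been assigned to either gene. The other members are Tlr2 (ENSMUSG00000027995, 3, 83836272 to 83841767, minus strand), Tlr3 (ENSMUSG00000031639, 8, 45395665 to 45411080, minus strand), Tlr4 (ENSMUSG00000039005, 4, 66827584 to 66930284, plus strand), Tlr5 (ENSMUSG00000079164, 1, 182954788 to 182976044, plus strand) and Tlr9 (ENSMUSG00000045322, 9, 106222598 to 106226883, plus strand). Tlr3 is overlapped on the other strand by Gm45542. The kit marks strand, but whether the counting used it is not given in the sources used here, so reads of Gm45542 in the level of Tlr3 cannot be told apart.

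RefSeq promoters (GRCm38.p6) were matched by symbol for 8 of the 10 members, not for Tlr4 and Tlr7. The 250 bases before each start were searched on both strands for GAGGAA, the core to which PU.1 binds, the factor that macrophage development depends on. It was found in 4 of the 10 promoters of these members, those of Tlr1 (the first of its 2 promoters), Tlr8, Tlr9 and Tlr13, and in none of Tlr2, Tlr3, Tlr5 and Tlr6, while 23.3% of the 32851 promoters of the same length hold it. The searched stretches lay partly inside annotated genes, by 159 of 250 bases for Tlr2, 71 for Tlr13 and all 250 for Tlr3. Of Tlr1 and of Tlr6, 1 promoter each lay wholly inside, and the other by 5 and 49 bases. Of the 2 mouse family genes that are not members, Tlr11 holds the core and Tlr12 does not. Yet Tlr12 was at 0.0543 to 0.325 TPM in aCSF1R, below every library of the other groups, of which the lowest had 0.594 TPM. Tlr11 averaged 0.256 TPM in aCSF1R and 0.180 TPM in BF10. These letters are a description and not a measured site. The 4 promoters with the core are shown because 3 of these genes, Tlr1, Tlr8 and Tlr13, are among the 4 members that were lower in aCSF1R below, Tlr7 being without a promoter in the table, and Tlr9 passed in 1 of the fits there. Tlr5 is shown as a member without the core whose groups overlapped. Each stretch reads 5′ to 3′ toward the gene, with bases inside the annotated gene left out, and capitals mark GAGGAA or its reverse complement TTCCTC.
Tlr1, chr5:64933564-64933808, minus strand: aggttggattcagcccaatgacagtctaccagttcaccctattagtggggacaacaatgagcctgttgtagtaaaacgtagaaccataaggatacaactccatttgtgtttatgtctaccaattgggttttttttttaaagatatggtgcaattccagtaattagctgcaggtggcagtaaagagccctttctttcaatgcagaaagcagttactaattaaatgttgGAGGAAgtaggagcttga
Tlr8, chrX:167264330-167264579, minus strand: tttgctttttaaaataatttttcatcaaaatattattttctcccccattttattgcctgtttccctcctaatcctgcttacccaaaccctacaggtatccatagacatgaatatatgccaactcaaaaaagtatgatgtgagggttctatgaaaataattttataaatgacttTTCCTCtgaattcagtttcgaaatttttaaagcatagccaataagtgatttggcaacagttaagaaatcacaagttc
Tlr9, chr9:106222348-106222597, plus strand: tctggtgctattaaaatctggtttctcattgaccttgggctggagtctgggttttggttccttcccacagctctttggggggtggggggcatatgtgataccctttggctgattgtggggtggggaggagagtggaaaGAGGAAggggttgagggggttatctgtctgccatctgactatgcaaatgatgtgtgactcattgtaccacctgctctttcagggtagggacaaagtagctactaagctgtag
Tlr13, chrX:106143025-106143203, plus strand: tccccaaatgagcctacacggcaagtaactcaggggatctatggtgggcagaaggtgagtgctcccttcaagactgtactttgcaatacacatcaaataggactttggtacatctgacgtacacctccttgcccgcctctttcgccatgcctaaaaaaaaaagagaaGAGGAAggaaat
Tlr5, chr1:182954538-182954787, plus strand: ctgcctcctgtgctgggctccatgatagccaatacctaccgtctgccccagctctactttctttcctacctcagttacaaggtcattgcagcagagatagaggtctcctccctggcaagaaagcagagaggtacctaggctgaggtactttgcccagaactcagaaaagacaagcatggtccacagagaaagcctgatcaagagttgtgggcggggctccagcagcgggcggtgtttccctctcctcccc
Counted back from the RefSeq start, the core lay at -23 to -18 in Tlr1, -77 to -72 in Tlr8 on the other strand, -112 to -107 in Tlr9 and -83 to -78 in Tlr13. The interferon-stimulated response element, searched as GAAA, any 2 bases and GAAA, was in a promoter of Tlr6 (2.98% of all promoters hold it). The kappa B letters GGGA, any 2 bases and TTCC were in that of Tlr3 (1.21% of all promoters). Neither lies on a PU.1 core, which these 2 genes lack. Both of these promoters lie wholly inside the annotated gene. The bases after the start of that Tlr6 promoter were not found in a Tlr6 transcript, and the other Tlr6 promoter has no match.

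Over all libraries the mean level ran from 24.9 TPM for Tlr3 (15.99 to 34.7 TPM, n = 12), the receptor for double-stranded RNA, down to 1.02 TPM for Tlr9 (0.0109 to 2.33 TPM, n = 12). In control tumors Tlr3 was highest with 23.0 ± 4.16 TPM (SD, n = 3), followed by Tlr4 with 17.1 ± 4.22 TPM, Tlr2 with 14.6 ± 4.21 TPM, Tlr13 with 13.3 ± 2.52 TPM, Tlr1 with 10.003 ± 1.96 TPM, Tlr8 with 7.72 ± 2.80 TPM, Tlr7 with 7.55 ± 3.27 TPM and Tlr6 with 3.55 ± 0.818 TPM. Neighbors in this order overlapped in range, down to Tlr6. Tlr5 (0.934 ± 0.760 TPM) and Tlr9 (0.743 ± 0.729 TPM) lay below Tlr6 in every control library. The order was different in aCSF1R, where Tlr3 stood at 28.8 ± 5.37 TPM, above Tlr2 in all 3 libraries, and Tlr4 with 13.4 ± 4.28 TPM was followed by Tlr6 with 4.61 ± 1.33 TPM, ahead of Tlr13, Tlr1, Tlr8 and Tlr7. Of the mouse family genes that are not members here, Tlr11 was at 0.0651 to 0.477 TPM over the 12 libraries, and Tlr12 averaged 1.05 TPM in control, 1.55 TPM in IL-10-Fc, 0.219 TPM in aCSF1R and 1.74 TPM in BF10.

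**Figure D1:**
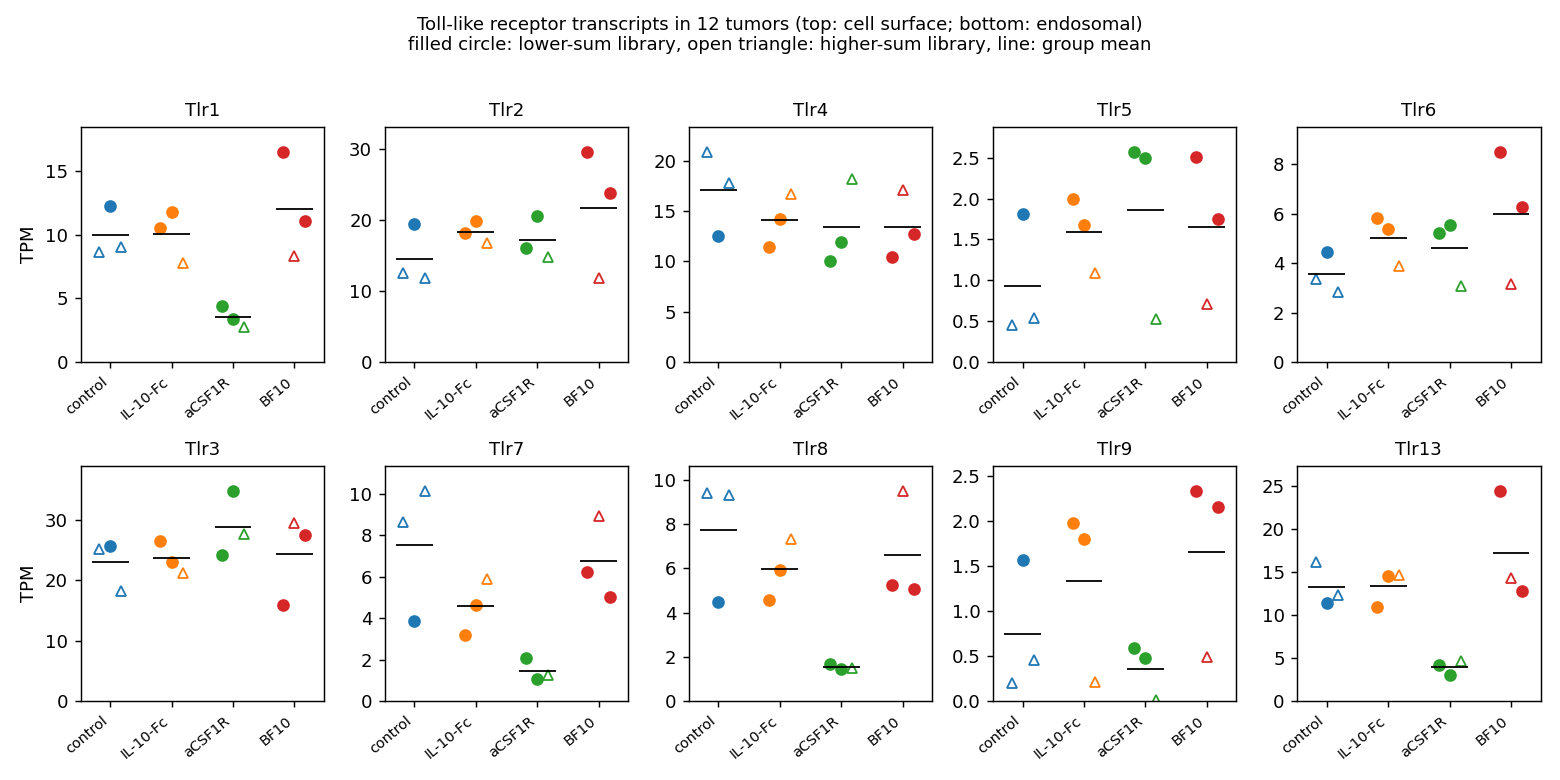
TPM (y axis) of each Toll-like receptor in the 3 tumors of control, IL-10-Fc, aCSF1R and BF10 (x axis), with 1 point a library, filled circles for lower-sum and open triangles for higher-sum libraries, and a line at the group mean. The aCSF1R points of Tlr1, Tlr7, Tlr8 and Tlr13 lie below all other 9 libraries, and those of Tlr2, Tlr3, Tlr4, Tlr5 and Tlr6 overlap them.

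Tlr1, Tlr7, Tlr8 and Tlr13 were lower in aCSF1R than in the mean of the other 3 groups. The fold of TPM + 1 was 2.56 to 3.11, a scale that understates the fall in TPM, most for low genes. The other 6 members did not pass the test. Leaving out 1 library at a time kept the call of Tlr13 in 11 of 12 fits (adjusted p 0.0807 without aCSF1R replicate 6), that of Tlr8 in 5, that of Tlr1 in 4 and that of Tlr7 in 1, while all 4 stayed called in 12 of 12 such fits with the set as a term. In these 4 genes the 3 aCSF1R libraries lay below all other 9, as did 2.46% of all tested genes. The 4 calls compare with 1.03% of all genes called lower in this contrast, and with the set as a term Tlr9 joined them (5 of 10, against 3.28% of all genes). The median change of the 10 members was -0.40 and that of all tested genes 0.03. Against control alone, with 3 libraries on each side, 0 of 10 members passed in limma (0.568% of all genes were called lower and 0% higher). An unadjusted p below 0.05 was reached by 4 members and by 537 of all 15504 genes. With the set as a term the same 4 members passed (against 1.93% of all genes). Their groups did not overlap, which held for 3.68% of all tested genes in that direction.

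Tlr7 senses single-stranded RNA in endosomes. Tlr7 was at 8.66, 3.87 and 10.1 TPM in control, 3.20, 4.63 and 5.88 TPM in IL-10-Fc, 2.10, 1.07 and 1.25 TPM in aCSF1R and 6.24, 8.94 and 5.05 TPM in BF10. Every aCSF1R tumor was below every tumor of the other groups, and the nearest was IL-10-Fc replicate 2. The log2 change of Tlr7 in aCSF1R against the mean of the others was -1.51 (SE 0.31, limma adjusted p 0.0464), and with the set as a term it was -1.46 (adjusted p 0.00273). Against control it was -1.73 (95% interval -2.55 to -0.90, adjusted p 0.104), and with the set as a term -1.56 (adjusted p 0.0126). Without control replicate 5, the control tumor with the least Tlr7, the adjusted p against the mean of the others was 0.0159, and without any other library it lay above 0.05, up to 0.335. The call against control with the set as a term was lost without aCSF1R replicate 6 or 8 or control replicate 7 (adjusted p up to 0.0907).

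Tlr8 was at 9.38, 4.48 and 9.29 TPM in control, 4.59, 5.94 and 7.33 TPM in IL-10-Fc, 1.66, 1.48 and 1.52 TPM in aCSF1R and 5.22, 9.48 and 5.06 TPM in BF10. The aCSF1R tumors were close together and the lowest 3 of the series. The change against the mean of the others was -1.56 (SE 0.28, limma adjusted p 0.0231; -1.50 and 0.000405 with the set as a term), and against control -1.71 (adjusted p 0.0639; -1.54 and 0.00292 with the set as a term). The call against the mean of the others was lost without any 1 of the aCSF1R replicates, control replicates 4 and 7 and IL-10-Fc replicates 4 and 7 (adjusted p up to 0.156). The range of the ratio of Tlr7 to Tlr8 in aCSF1R overlapped that of each other group. Mean ratios were 0.959 ± 0.116 (control), 0.760 ± 0.0541 (IL-10-Fc), 0.936 ± 0.289 (aCSF1R) and 1.04 ± 0.133 (BF10; SD, n = 3 each). Both genes were also higher in the higher-sum libraries, by 0.50 for Tlr7 and 0.52 for Tlr8 on the log2 scale, short of the 1.5-fold threshold. Within the sets the change of Tlr7 in aCSF1R against control was -0.95 in the lower-sum and -2.21 in the higher-sum libraries. The first rests on 2 aCSF1R tumors and 1 control tumor, the second on 1 and 2.

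Tlr13 recognizes bacterial ribosomal RNA in endosomes. Its level was 16.2, 11.4 and 12.4 TPM in control, 10.9, 14.6 and 14.7 TPM in IL-10-Fc, 4.16, 3.07 and 4.62 TPM in aCSF1R and 24.4, 14.4 and 12.8 TPM in BF10. The 3 aCSF1R tumors were apart from the rest, and the highest value was that of BF10 replicate 3. The change of Tlr13 in aCSF1R against the mean of the others was -1.64 (SE 0.25, limma adjusted p 0.00830; -1.62 and 0.000790 with the set as a term). Against control the change was -1.53 (limma adjusted p 0.0639), and -1.49 with the set as a term (adjusted p 0.0108). Within each library set it was -1.43, from 2 aCSF1R and 1 control tumor (lower-sum) and from 1 and 2 (higher-sum). Without aCSF1R replicate 6 or control replicate 5 the call with the set as a term was lost (adjusted p up to 0.0588).

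Tlr9, the endosomal receptor for unmethylated CpG DNA, was at 0.202, 1.57 and 0.455 TPM in control, 1.98, 1.80 and 0.217 TPM in IL-10-Fc, 0.585, 0.476 and 0.0109 TPM in aCSF1R and 2.33, 0.494 and 2.16 TPM in BF10. It was lower in the higher-sum libraries by 0.98 on the log2 scale (limma adjusted p 9.89e-05), and the 5 libraries with 1 TPM or more were all lower-sum. An estimated 1.08 reads stood behind the lowest value and 173 behind the highest, so differences within the higher-sum libraries rest on few reads. In aCSF1R against the mean of the others the change of Tlr9 was -0.64 (limma adjusted p 1), and it passed with the set as a term at -0.75 (adjusted p 0.0193). Against control it was -0.31 (adjusted p 0.893), and -0.64 (adjusted p 0.206) with the set as a term.

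Tlr1, which pairs with Tlr2 for triacylated lipopeptides, was at 8.68, 12.3 and 9.07 TPM in control, 10.5, 11.8 and 7.80 TPM in IL-10-Fc, 4.37, 3.41 and 2.75 TPM in aCSF1R and 16.5, 8.37 and 11.1 TPM in BF10. It was the 1 surface receptor whose aCSF1R tumors lay below all others. The change against the mean of the others was -1.36 (SE 0.25, limma adjusted p 0.0308; -1.41 and 0.000184 with the set as a term), and against control -1.29 (adjusted p 0.181; -1.45 and 0.00138 with the set as a term). Without BF10 replicate 7, any aCSF1R replicate, control replicate 4 or 7, or IL-10-Fc replicate 2 or 4, the call against the mean of the others was lost (adjusted p up to 0.183). Its partner Tlr2 did not pass the test. Tlr2 was at 12.5, 19.4 and 11.8 TPM in control, 18.1, 19.8 and 16.8 TPM in IL-10-Fc, 16.1, 20.5 and 14.8 TPM in aCSF1R and 29.6, 11.8 and 23.8 TPM in BF10, with overlapping groups and a change of 0.24 in aCSF1R against control (95% interval -0.51 to 0.99; 0.06 with the set as a term).

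Tlr6, the partner of Tlr2 for diacylated lipopeptides and the neighbor of Tlr1, was at 3.34, 4.45 and 2.85 TPM in control, 5.84, 5.38 and 3.88 TPM in IL-10-Fc, 5.22, 5.53 and 3.08 TPM in aCSF1R and 8.49, 3.16 and 6.29 TPM in BF10. The groups overlapped, and its change in aCSF1R against control was 0.29 (95% interval -0.49 to 1.07; 0.08 with the set as a term). The ratio of Tlr1 to Tlr6 was 2.85 ± 0.303 in control, 2.00 ± 0.198 in IL-10-Fc and 2.12 ± 0.468 in BF10, and 0.782 ± 0.145 in aCSF1R (SD, n = 3 each), where each tumor had less Tlr1 than Tlr6. The ratio of Tlr1 to Tlr2 was 0.699 ± 0.0682 in control and 0.208 ± 0.0564 in aCSF1R (SD, n = 3 each). Such ratios within a library do not depend on how libraries are scaled. These pairs were chosen after their values were seen, so their ratios are given as a description, without a p-value.

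The remaining members, Tlr3, Tlr4 and Tlr5, overlapped between aCSF1R and each other group. Tlr3 was at 25.2, 25.6 and 18.2 TPM in control, 26.5, 23.1 and 21.2 TPM in IL-10-Fc, 24.2, 34.7 and 27.6 TPM in aCSF1R and 15.99, 29.4 and 27.4 TPM in BF10. Its change in aCSF1R against control was 0.31 (95% interval -0.31 to 0.94; also 0.31 with the set as a term), with the highest value in aCSF1R replicate 6. Tlr4, the receptor for lipopolysaccharide, ran from 10.1 to 18.2 TPM in aCSF1R and from 12.5 to 20.9 TPM in control, a change of -0.34 (95% interval -1.03 to 0.35; -0.16 with the set as a term). The 5 higher-sum libraries held the highest 5 values of Tlr4, and the set difference was 0.54 (SE 0.12), below 1.5-fold. Tlr5, the receptor for flagellin, was at 0.449 to 1.81 TPM in control and 0.521 to 2.57 TPM in aCSF1R, a change of 0.53 (95% interval -0.38 to 1.44; 0.25 with the set as a term), and was lower in the higher-sum libraries by 0.86. Beyond Tlr5 and Tlr9, Tlr6 also differed between the sets past the threshold (lower by 0.62), against 59.2% of all tested genes.

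**Figure D2:**
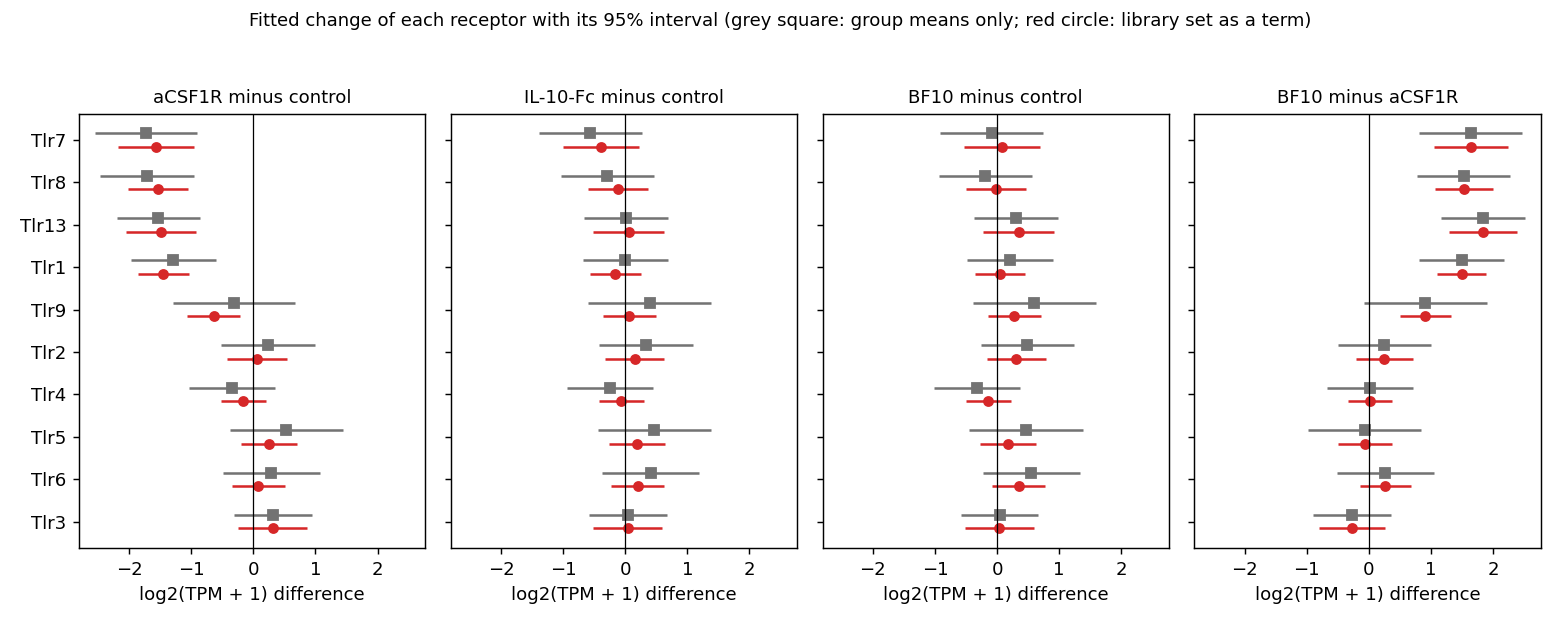
Difference of log2(TPM + 1) (x axis) of each receptor (y axis) in 4 comparisons, as estimates with 95% intervals, from the fit of group means (grey squares) and with the library set as a term (red circles). In aCSF1R minus control Tlr7, Tlr8, Tlr13 and Tlr1 lie between -1.73 and -1.29, the intervals of Tlr2, Tlr3, Tlr4, Tlr5 and Tlr6 include 0 in both fits, and in IL-10-Fc or BF10 minus control the interval includes 0 for each of the 10 receptors.

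Against control neither IL-10-Fc nor BF10 gave a call among the 10 members in limma or with the set as a term, where 0% of all genes was called in either direction for BF10 and 0.00645% lower and 0% higher for IL-10-Fc in limma, and with the set as a term 0.00645% lower for BF10 and, for IL-10-Fc, 0.00645% lower and 0.0193% higher. No member had an unadjusted p below 0.05 in these comparisons. In limma 234 of all 15504 genes did for BF10 and 224 for IL-10-Fc. With sample quality weights, a fit that gives tumors unequal weight, 6 members were called for BF10 and 5 for IL-10-Fc, where 57.8% and 59.8% of all genes were called, so these counts are near the share of all genes. The scaling shifts the centre here: the median change of all genes against control was 0.32 for BF10 and 0.35 for IL-10-Fc, and that of the 10 members 0.26 and 0.03. With scaling by the median of ratios the median of all genes was 0.015 and -0.0049. The sign of Tlr1, Tlr3 and Tlr13 turned with the scaling in both comparisons, and that of Tlr2 for IL-10-Fc. The change of Tlr13 in BF10 against control was 0.31 (95% interval -0.37 to 0.98; 0.35 with the set as a term) and that of Tlr7 -0.09 (95% interval -0.91 to 0.74; 0.08 with the set as a term). In IL-10-Fc against control the change of Tlr7 was -0.56 (95% interval -1.39 to 0.26; -0.40 with the set as a term). BF10 against IL-10-Fc gave 0 of 10 members, with 0% of all genes called. At an unadjusted p below 0.05 there were 0 members and 42 of all 15504 genes in limma. The difference of Tlr7 there was 0.47 (95% interval -0.35 to 1.299).

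BF10 carries the CSF1R antibody, and the comparison with aCSF1R asks how the receptors differ when interleukin-10 is attached. Tlr13 was higher in BF10 by 1.84 (SE 0.30, limma adjusted p 0.0183), the 1 member called, where 0.735% of all genes were called higher. That call was lost without BF10 replicate 3, aCSF1R replicate 4 or aCSF1R replicate 6 (adjusted p up to 0.105). With the set as a term 5 members were higher in BF10, Tlr1 by 1.49 (adjusted p 0.000661), Tlr7 by 1.64 (adjusted p 0.00574), Tlr8 by 1.53 (adjusted p 0.00187), Tlr9 by 0.91 (adjusted p 0.0232) and Tlr13 by 1.84 (adjusted p 0.00167), against 2.77% of all genes. The BF10 and aCSF1R tumors did not overlap in 4 of them, Tlr9 being the exception, and in 4.33% of all genes. IL-10-Fc against aCSF1R gave 0 members in limma, where 0.542% of all genes were called higher. At an unadjusted p below 0.05 there were 552 of all 15504 genes, among them 4 members. The groups did not overlap in these 4, Tlr1, Tlr7, Tlr8 and Tlr13, and in 5.9% of all genes. With the set as a term Tlr1, Tlr8 and Tlr13 passed (3 of 10, against 2.12% of all genes), and Tlr7 did not, at 1.17 (adjusted p 0.0553). These comparisons share the aCSF1R libraries. A last contrast asks whether BF10 departs from the sum of its parts: the change in BF10 less those in IL-10-Fc and aCSF1R, each against control. It gave 0 members (0.284% of all genes were called higher and 0.00645% lower). An unadjusted p below 0.05 was reached by 4 members and by 377 of all 15504 genes. With the set as a term 4 members were called, all positive, against 1.19% of all genes. Tlr7 had 2.03 (adjusted p 0.0288) and Tlr8 1.64 (adjusted p 0.0262). Tlr13 had 1.78 (adjusted p 0.0406) and Tlr1 1.65 (adjusted p 0.00878). Leaving out 1 library kept the call of Tlr1 in 12 of 12 such fits, those of Tlr8 and Tlr13 in 3 and that of Tlr7 in 2.

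The summed level of the 10 receptors was 98.4 ± 6.48 TPM in control, 97.9 ± 4.40 TPM in IL-10-Fc, 76.7 ± 7.12 TPM in aCSF1R and 111 ± 9.35 TPM in BF10 (SD, n = 3 each). Tlr3 made up 37.4% ± 3.47 of it in aCSF1R and 22.3% to 24.2% on average in the other groups. Tlr13 made up 5.23% ± 1.41 in aCSF1R and 13.5% ± 1.82 in control, and Tlr1 4.63% ± 1.34 and 10.2% ± 2.21 (SD, n = 3 each). The surface receptors together held 46.9% ± 4.36 of this sum for control, 50.1% ± 1.54 for IL-10-Fc tumors, 52.9% ± 1.06 for aCSF1R tumors and 48.9% ± 8.25 for BF10 tumors (SD, n = 3 each). Among lower-sum libraries this share was 51.8% in the control tumor and 51.8% and 53.9% in the aCSF1R tumors. The lower members were of both kinds, Tlr1 at the surface and Tlr7, Tlr8 and Tlr13 in endosomes.

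**Figure D3:**
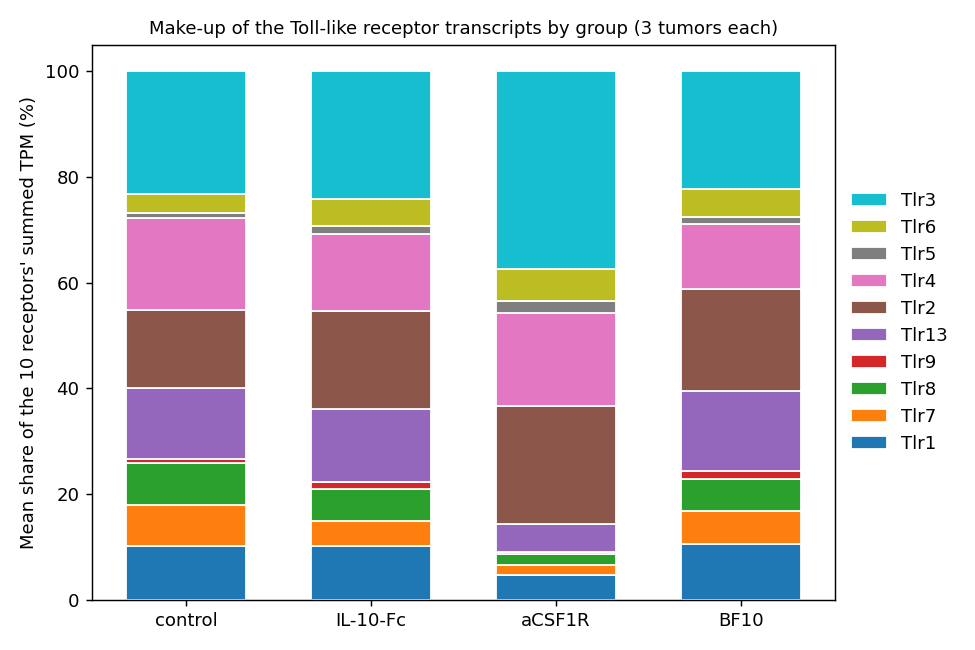
Mean share (y axis, percent) of each of the 10 receptors in their summed TPM in the 3 tumors of each group (x axis). The blocks of Tlr1, Tlr7, Tlr8, Tlr9 and Tlr13 at the bottom are smaller in aCSF1R than in the other 3 groups, and Tlr3 at the top makes up 37.4% there.

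Macrophage markers, like Tlr1, Tlr7, Tlr8 and Tlr13, were lowest in the aCSF1R libraries. The summed level of 12 marker genes, among them Csf1r, Adgre1 and the C1q genes, was 2357 to 3524 TPM in control, 2251 to 3854 TPM in IL-10-Fc, 2544 to 4310 TPM in BF10 and 137 to 953 TPM in aCSF1R. In aCSF1R against control 6 of 12 markers were lower in limma and 11 of 12 with the set as a term, with a median change of -2.27. Of all genes 0.568% and 1.93% were called lower in these fits. Among the other groups Tlr1 was highest, in each group, in the library with the highest marker sum, but Tlr7 and Tlr8 were not. Control replicate 5, the 1 lower-sum control library, had the highest sum of its group, 3524 TPM. Its Tlr7 and Tlr8 were the lowest of the group, 3.87 and 4.48 TPM. BF10 replicate 6, the 1 higher-sum BF10 library, had the lowest marker sum of its group, 2544 TPM. Its Tlr7 and Tlr8 were the highest of the group, 8.94 and 9.48 TPM. Tlr7 and Tlr8 were higher in higher-sum libraries by 0.50 and 0.52 on the log2 scale, so these 2 cases also compare library sets. Within aCSF1R the marker sum was 953, 591 and 137 TPM in replicates 4, 6 and 8. Tlr1 had the same order with 4.37, 3.41 and 2.75 TPM, and Tlr7 and Tlr8 were also highest in replicate 4, while Tlr13 was highest in replicate 8, with 4.62 TPM. That library also had the most neutrophil markers of its group, 3390 TPM over 8 genes against 1016 and 443 TPM. BF10 replicate 3, with the highest Tlr1, Tlr2, Tlr6, Tlr9 and Tlr13, had 16541 TPM of neutrophil markers, where the other 11 libraries had 443 to 3390 TPM. The same library had the highest macrophage and monocyte marker sums of the series too, 4310 and 484 TPM. Of the 6 monocyte markers Ccr2 was called lower in aCSF1R against control. Of the lists for B cells and dendritic cells, which carry Tlr7 and Tlr9, defining markers were below the filter (Ms4a1 and Pax5 among those for B cells, Flt3 and Xcr1 for conventional and Ccr9 and Cox6a2 for plasmacytoid dendritic cells) and no gene was called in aCSF1R against control, with 0 at an unadjusted p below 0.05 in limma. The summed B cell markers, of which Cd79a and Cd79b passed the filter, reached 67.8 TPM in 1 control library and 0.781 to 5.69 TPM in the other 11. The lists for neutrophils, T cells, NK cells, fibroblasts, endothelium and epithelium gave 0 calls there too, with 1 gene, of NK cells, at an unadjusted p below 0.05. In lists of this size 0 calls are near the share of all genes, which was 0.568% lower and 0% higher in limma. At an unadjusted p below 0.05 there were 537 of all 15504 genes. The part of any cell type in the receptor levels was not tested.

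**Figure D4:**
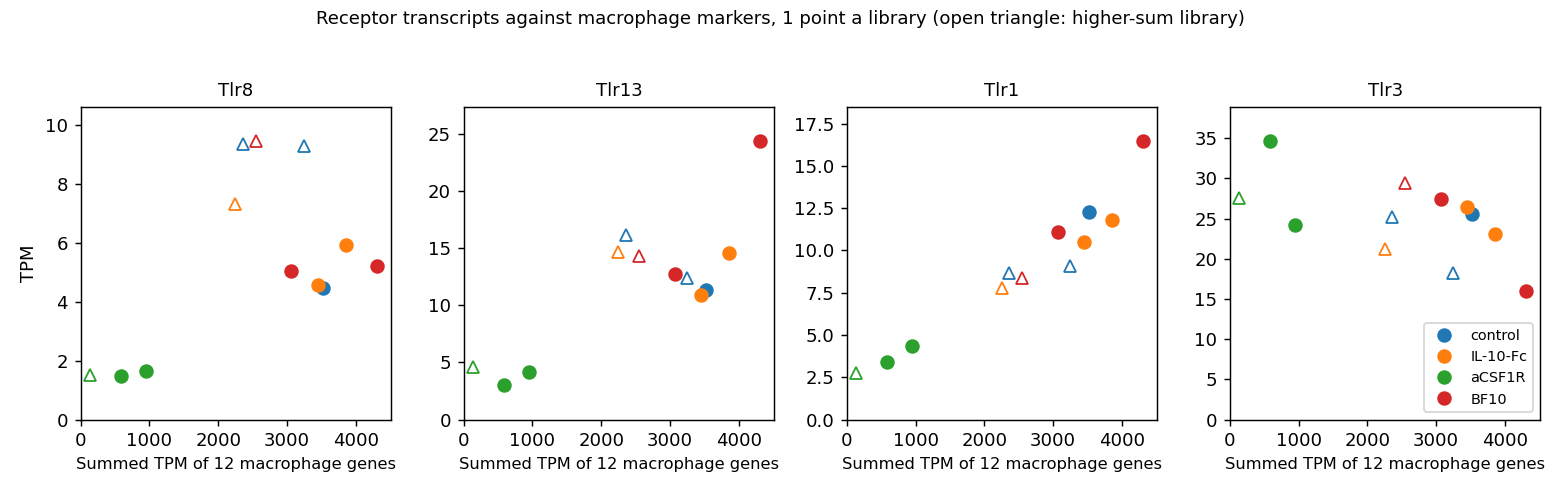
TPM of Tlr8, Tlr13, Tlr1 and Tlr3 (y axes) against the summed TPM of 12 macrophage marker genes (x axes), 1 point a library, colored by group, with open triangles for higher-sum libraries. The 3 aCSF1R libraries, with marker sums of 137 to 953 TPM, have the lowest Tlr8, Tlr13 and Tlr1, and their Tlr3 lies at 24.2 to 34.7 TPM.

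Genes that serve these receptors were read from lists chosen with earlier results of these data known. Of 12 co-receptors and trafficking genes, Ly86, Cd180, Unc93b1 and Lgmn were lower in aCSF1R than in the mean of the others (4 of 12, against 1.03% of all genes). At an unadjusted p below 0.05 there were 6 of the 12, and 683 of all 15504 genes. With the set as a term 6 were called, adding Cd14 and Pik3ap1, against 3.28% of all genes. Unc93b1, which carries endosomal Toll-like receptors from the endoplasmic reticulum, changed by -2.36 against the mean of the others (SE 0.44, limma adjusted p 0.0285). It averaged 69.4 TPM in control and 18.3 TPM in aCSF1R, and against control alone it was not called in limma. Cd180, a receptor of the same fold without a TIR domain, changed by -1.90 (adjusted p 0.0142), and Ly86, its soluble partner MD-1, by -3.04 (adjusted p 0.000982). Lgmn, a lysosomal protease that can process endosomal Toll-like receptors, changed by -1.04 (adjusted p 0.0428). Against control alone Ly86 was the 1 gene called in limma, at -3.48 (adjusted p 0.00249), where 0.568% of all genes were called lower. Ly96, the MD-2 partner of Tlr4, changed by -0.07 against the mean of the others (adjusted p 1), and Cd14, a lipopolysaccharide co-receptor, by -0.91 (adjusted p 0.0930; 0.0145 with the set as a term).

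The shared signaling genes did not give a call in limma. There 0.568% of all genes were called lower in aCSF1R against control and 1.03% against the mean of the others. With the set as a term these shares were 1.93% and 3.28%. A count of 0 in lists of this size is near those shares. An unadjusted p below 0.05 in limma was reached by 537 of all 15504 genes against control and 683 against the mean of the others. Of 18 adaptors and kinases tested, 0 passed, and 0 had an unadjusted p below 0.05, in aCSF1R against control or against the mean of the others, and with the set as a term Ticam2, the adaptor TRAM of Tlr4, was lower against the mean of the others at -0.79 (adjusted p 0.0172). Myd88, the adaptor of most of the family, had a change of -0.10 against control (adjusted p 0.951). Of 10 transcription factors 0 passed against control, with 0 at an unadjusted p below 0.05, and with the set as a term Irf5 was lower against control (-0.96, adjusted p 0.0419). Of 10 negative regulators and 8 endogenous ligands 0 passed in either fit, and 0 had an unadjusted p below 0.05 in limma. Nfkbia, an inhibitor of NF-kappa B and the most abundant regulator here, was at 39.98 TPM in control and 90.9 TPM in aCSF1R on average. Its change was 0.97 (limma adjusted p 0.893). Sigirr, an inhibitory receptor of the TIR family, was at 50.3 and 56.2 TPM. The summed negative regulators were at 112 to 214 TPM in higher-sum and 281 to 391 TPM in lower-sum libraries. Control holds more higher-sum libraries than aCSF1R, so these group means also carry the difference between sets. The most abundant ligands, S100a9 and S100a8, which neutrophils make, averaged 777 and 520 TPM in control and 909.5 and 618 TPM in aCSF1R. Of 17 target genes tested Nfkbiz alone was called with the set as a term, higher in aCSF1R than in control (0.90, adjusted p 0.0406). Of these 17, 4 had an unadjusted p below 0.05 in limma and 0 passed. Among 10 other pattern recognition receptors 0 passed in limma, 2 with an unadjusted p below 0.05 against control. With the set as a term Clec7a, the beta-glucan receptor Dectin-1, was lower against control (-1.48, adjusted p 0.00636), and Aim2, a sensor of cytosolic DNA, was lower against the mean of the others (-0.85, adjusted p 0.00992).

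The genes whose level over the 12 libraries was most like each receptor were found by Pearson's r of log2(TPM + 1) after subtraction of the mean of each library set. The r is a description, since the libraries share groups and scaling and the 3 aCSF1R libraries stand apart in the lower receptors. The nearest genes were Tyrobp, Lpxn and Fcer1g for Tlr1 (r = 0.993 to 0.997), Dok3, Gpr84 and Pid1 for Tlr13 (r = 0.989 to 0.993), Aif1, Slamf9 and C1qa for Tlr8 (r = 0.986 each), Atp8a1 and Ptpro for Tlr7 (r = 0.965 to 0.967) and Ifitm1, Lst1 and Gna15 for Tlr9 (r = 0.945 to 0.948). Tyrobp and Fcer1g are signaling adaptors, Aif1 a calcium-binding protein of myeloid cells and C1qa a complement subunit on the macrophage list. Without the subtraction the nearest gene of Tlr7 was its neighbor Tlr8 (r = 0.967) and that of Tlr1 was Lrrc25 (r = 0.984). Within the family, after the subtraction r was 0.79 to 0.98 among Tlr1, Tlr7, Tlr8, Tlr9 and Tlr13 (without it, Tlr9 had r = 0.10 with Tlr7, 0.099 with Tlr8, 0.43 with Tlr13 and 0.74 with Tlr1) and 0.79 for Tlr2 with Tlr6, while Tlr3 had negative r with each of the first 5, from -0.62 to -0.43. The nearest genes of the other members were Tnn, Gm25541 and Cysltr2 for Tlr2 (r = 0.850 to 0.870), AC167036.1, AC147806.2 and Mitd1 for Tlr3 (r = 0.947 to 0.966), Ighv12-1, 3110040N11Rik and Micos13 for Tlr4 (r = 0.839 to 0.858), Enpp3, Rab11fip1 and Gm26602 for Tlr5 (r = 0.920 to 0.935) and Gm20528, Dhrs7 and 1700020L24Rik for Tlr6 (r = 0.905 to 0.917).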

How the data were processed

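Stranded polyA libraries of 12 bulk tumors were sequenced by the authors and aligned to mm10 with the annotation GRCm38.101; the submitters' processing notes name STAR 2.7.5a, RSEM 1.3.3 and DESeq2 1.28.0 without their roles. The authors deposited FPKM values for 55401 genes, and 0 columns were left unmatched to a sample. A further 4 tables, not used here, hold the authors' DESeq2 comparisons: log2 fold changes, p-values, adjusted p-values and mean counts. FPKM was rescaled to TPM (1000000 per library), genes with TPM of at least 1 in at least 3 libraries were kept (15504), and log2(TPM + 1) was fitted with limma 3.58.1 in R 4.3.3 (eBayes with trend), 1 mean per group over all 12 libraries, two-sided, with Benjamini-Hochberg adjustment over all genes tested. The fold threshold of 1.5 follows the study's rule for differentially expressed genes; its pathway analysis used a stricter one for lower genes. Library sets were divided at the largest gap between FPKM sums (609695 to 648413 and 782919 to 921581); mitochondrial genes held 3.14% to 3.96% and 5.90% to 9.26%. Reads were estimated from the smallest steps of FPKM in short genes with 1 transcript, and counting error at this depth is largest for Tlr9 and Tlr5. Gene spans came from GENCODE (GRCm38). The members, the gene lists, the sets and the tests were chosen with earlier results of these data known. Named were all members, and of each list the genes called or, where none was, 1 or 2 of the most abundant; Ly96, Cd14 and Myd88 were named for their role after their values were seen. Alternatives were other pseudocounts, scalings, filters, fits and samples, each library left out and the replicate number as a block; leaving out each library with the set as a term was chosen after seeing the data. Some genes that the naming rule covers are not reported here.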

Additional observations from a re-analysis of the deposited data

How the results depend on the processing

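Tlr1, Tlr7, Tlr8 and Tlr13 kept their direction in aCSF1R against control and against the mean of the others under the alternatives that gave a value, while the number of members past the threshold depended on the fit. In aCSF1R against the mean of the other groups, 4 members were called, and 2 with the deposited FPKM without rescaling, 1 with scaling by the median of ratios, 1 with no filter on low values and 1 in the lower-sum libraries alone. In aCSF1R against control 0 were called, and 2 with a pseudocount of 0.1, 1 with FPKM, 1 with the median of ratios, 1 with genes at 1 TPM or more in all libraries, 4 with the set as a term, 2 without a trend and 7 (5 lower, 2 higher) with sample quality weights, where 63.8% of all genes were called. In BF10 against aCSF1R 1 was called, and 2 with the pseudocount, 2 with FPKM, 5 with the set, 0 in the lower-sum libraries, 2 without a trend, 5 with weights and 0 from the compared groups alone. In IL-10-Fc against aCSF1R 0 were called, and 1, 1, 3, 1 and 5 with the pseudocount, FPKM, the set, no trend and weights. The contrast for departure from the sum gave 0, and 4 with the set and 5 with weights (59.1% of all genes). With weights 6 were called for BF10 against control and 5 for IL-10-Fc (57.8% and 59.8% of all genes), where no other fit gave a call. In these 4 comparisons the members' counts under weights are near the share of all genes; under weights 3% of all genes were called in BF10 against aCSF1R and 12.7% in IL-10-Fc against aCSF1R. In the settings without weights and with no library left out in turn, 0% to 3.35% of all genes were called. The difference between library sets gave 3, and 6 with the median of ratios. The causes were not tested.

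With 1 library left out, the number called ran from 0 to 4 in aCSF1R against the mean of the others, 0 to 2 in aCSF1R against control, 0 to 1 in BF10 against aCSF1R, 0 to 1 in IL-10-Fc against aCSF1R and 2 to 6 between the sets. Tlr13 stayed called against the mean of the others in 11 of 12 such fits (not without aCSF1R replicate 6, adjusted p 0.0807), Tlr8 in 5, Tlr1 in 4 and Tlr7 in 1, that without control replicate 5. The call of Tlr13 in BF10 against aCSF1R was kept in 9 of 12 and lost without BF10 replicate 3, aCSF1R replicate 4 or aCSF1R replicate 6. With the set as a term, leaving out 1 library gave 4 to 5 members against the mean of the others, 2 to 4 against control, 4 to 5 in BF10 and 3 to 4 in IL-10-Fc against aCSF1R, and 1 to 3 in the contrast for departure from the sum. Tlr1, Tlr7, Tlr8 and Tlr13 stayed called against the mean of the others in 12 of 12 fits with that term, and Tlr9 in 10.

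For 7 pairs of samples with the same replicate number, the r of their deviations from the group means ran from -0.66 to 0.42. The 5 negative r joined libraries of different sets and the 2 positive ones, 0.42 and 0.35, libraries of the same set, so r does not decide whether the numbers pair the tumors, and the labels name no shared animal or day. With the replicate number as a block, which left 2 residual degrees of freedom, 0 members were called in aCSF1R against the mean of the others and 0 in BF10 against aCSF1R. Depth limits Tlr9 in the higher-sum libraries most.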
